A study of Mus musculus with 4 samples.

Results

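The genes of the nuclear pore complex were followed through the last stages of mouse red cell formation, from sorted fetal liver erythroblasts to a population that already contains reticulocytes. Members were taken by symbol: every gene in the files whose symbol starts with Nup and a digit, together with Nupl1, Nupl2, Pom121, Tpr, Rae1, Aaas, Seh1l and Sec13. This gave 27 of the 19564 genes listed, and all 27 reached at least 1 RPKM (reads scaled to gene length and library size) in at least 1 population, as 9942 genes did in all. Ndc1, another entry of the rule, is not a symbol of the files, where the older name Tmem48 stands for that gene. Tmem48 is therefore described with the pore's partners and not counted as a member.

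RNA was prepared directly from fetal liver cells of mouse embryos (E14.5), sorted by TER119, a surface antigen of the red cell lineage, and CD71, the transferrin receptor. R2 holds proerythroblasts and early basophilic erythroblasts, R3 early and late basophilic erythroblasts, R4 mostly polychromatophilic and orthochromatophilic erythroblasts, and R5 late orthochromatophilic erythroblasts with reticulocytes, which have expelled their nucleus. No genotype, strain or treatment is given, and each population is a mixture of neighbouring stages defined by its sort gate. Each population gave 1 library of polyadenylated RNA, so no difference below has a replicate check, no p-value is given, and counts of genes past 2-fold describe these libraries alone.

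The nuclear pore is the channel through which messenger RNA leaves the nucleus and proteins enter and leave it. Its scaffold is built of outer rings, made of Y-shaped complexes, and an inner ring, and it is held in the nuclear envelope by membrane proteins. Proteins with phenylalanine-glycine (FG) repeats fill the central channel, filaments reach into the cytoplasm, and a basket reaches into the nucleus. Red cell precursors divide, then stop dividing, condense their chromatin and finally expel the nucleus with its pores, so the pore genes were read here against a cell that is about to lose the structure they build.

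Identity of the cells was checked first. Erythroid markers were found in every library. Alas2, the first enzyme of red cell heme synthesis, was at 75.3 (R2), 1129 (R3), 1797 (R4) and 1406 RPKM (R5), and Slc4a1, the anion exchanger of the red cell membrane, at 164, 2342, 2667 and 1734. Klf1, an erythroid transcription factor, was at 254, 418, 257 and 255 RPKM. The CD71 gene Tfrc stood at 52.1 (R2), 133 (R3), 74.4 (R4) and 32.8 RPKM (R5). Markers of other cell types were also found. Granulocyte, progenitor, macrophage and lymphoid markers summed highest in R2, hepatocyte markers in R3 and megakaryocyte markers in R5. The 11 measured granulocyte markers, with Mpo and S100a9 highest, summed to 6232 (R2), 439 (R3), 240 (R4) and 479 RPKM (R5), none was at 0, and 11 of 11 were at least 2-fold lower in R3 than in R2. The 4 progenitor markers summed to 151 (R2), 13.0 (R3), 8.16 (R4) and 11.9 RPKM (R5). The 8 macrophage markers summed to 89.7, 49.5, 20.6 and 48.7 RPKM from R2 to R5, the 5 hepatocyte markers to 190, 466, 155 and 326, and the 5 megakaryocyte markers to 35.1, 40.6, 21.9 and 65.2, with none at 0. The 6 lymphoid markers summed to 28.9, 2.12, 1.33 and 2.75 RPKM, with Cd3e at 0 in every library and Cd3g at 0 in R3 and R5. The part of these cells in the pore values was not tested.

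Globin transcripts made up 5.52% (R2), 59.4% (R3), 80.4% (R4) and 81.9% (R5) of all RPKM, and a larger share for globin lowers the RPKM of every other gene. Members were therefore also set against the median gene of the same comparison and against each other within a library, since the proportions among members do not depend on how libraries are scaled. In bulk RNA, fewer cells carrying a transcript and less of it per cell cannot be told apart. From the smallest steps between values, the libraries held about 23000000 (R2), 25600000 (R3), 27400000 (R4) and 20700000 (R5) reads. With exonic lengths of the current annotation, every member was backed by an estimated 70 reads or more in every library. For the log2 ratio of a member's RPKM, with nothing added, the 95% counting interval had a half-width between 0.027 and 0.455. Such intervals cover counting error only. The log2 ratios between populations given below were taken after adding 1 RPKM, so these widths are not theirs.

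Promoter sequence was not used to choose the members, and a few promoters are shown because they carry shared letters or belong to the members that stood highest in R4 relative to R2 within the pore. RefSeq promoter windows (build GRCm38.p6, 250 bases before to 50 after the gene start) were matched for 23 of the 27 genes, 26 windows in all. Nup43, Nup35, Nup85 and Seh1l had no matching entry. Each line below gives the 150 bases just before the start, 5′ to 3′ on the gene's strand. Capitals mark GCGCATGC, the core of the site of the factor NRF1, on either strand, where a site read on both strands overlaps itself. They also mark CCAAT, the CCAAT box, on either strand, and TGACGTCA, the cyclic AMP response element.
Nup107 (chr10:117792706-117792855, minus strand): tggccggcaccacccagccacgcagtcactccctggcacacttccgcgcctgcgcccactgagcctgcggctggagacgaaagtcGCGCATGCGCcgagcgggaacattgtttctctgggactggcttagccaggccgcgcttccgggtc
Nup62 (chr7:44815938-44816087, plus strand): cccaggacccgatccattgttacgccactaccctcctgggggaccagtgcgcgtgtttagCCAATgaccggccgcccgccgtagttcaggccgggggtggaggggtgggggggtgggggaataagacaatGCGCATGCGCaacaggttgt
Nup50 (chr15:84923278-84923427, plus strand): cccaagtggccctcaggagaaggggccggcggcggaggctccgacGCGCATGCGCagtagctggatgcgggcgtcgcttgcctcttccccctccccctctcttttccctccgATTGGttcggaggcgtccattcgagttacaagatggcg
Nup133 (chr8:123949266-123949415, minus strand): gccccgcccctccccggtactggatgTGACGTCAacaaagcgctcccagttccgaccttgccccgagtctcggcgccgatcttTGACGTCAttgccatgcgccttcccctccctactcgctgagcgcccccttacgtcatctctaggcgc
Nup153 (chr13:46727850-46727999, minus strand): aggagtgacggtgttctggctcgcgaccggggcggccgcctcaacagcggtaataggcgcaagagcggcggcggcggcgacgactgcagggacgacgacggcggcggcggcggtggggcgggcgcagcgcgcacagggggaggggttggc

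The member windows were rich in G and C, with a median of 64.2% against 52.7% over all 32851 windows, which include non-coding genes. They were also rich in the base pair step CG, with a median of 28 per window against 7. GCGCATGC was found in 4 of the 26 member windows (15.4%), those of Nup107, Nup62, Nup50 and Nupl1, and in 2.71% of all windows. CCGGAAGT, a site of ETS factors, was found in 5 (19.2%), those of Aaas, Nup155, Nup54, Rae1 and Sec13, and in 3.89% of all windows. The E-box that MYC binds, CACGTG, was found in 3 member windows, those of Nup188, Nup54 and Nup93, a share of 11.5%, and in 7.15% of all windows. The CCAAT box was in 12 member windows (46.2%) and in 37.4% of all. The GATA site AGATAA was in 1 member window (3.85%), that of Sec13, and in 11.2% of all. TTTCGCGC, an E2F site, was in 0 member windows and in 0.323% of all. TGACGTCA was added after the sequences were seen. It lay in the windows of Nup133, Nup214 and Nupl2 (11.5%, and 1.79% of all), and Nup133 carried it at 2 places, as 13 of all 32851 windows did. GCGCATGC, CCGGAAGT, CACGTG, TTTCGCGC and TGACGTCA all contain CG. Whether member windows differ in them from other windows equally rich in CG was not tested. The 3 genes shown with GCGCATGC did not share a course in R5 against R2, as described next. Nup50 stood among the highest members, and Nup107 and Nup62 below the member median. Nupl1, not shown, had a log2 ratio of -2.04, against a member median of -2.14. Whether the site goes with a course was not tested.

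**Figure D1:**
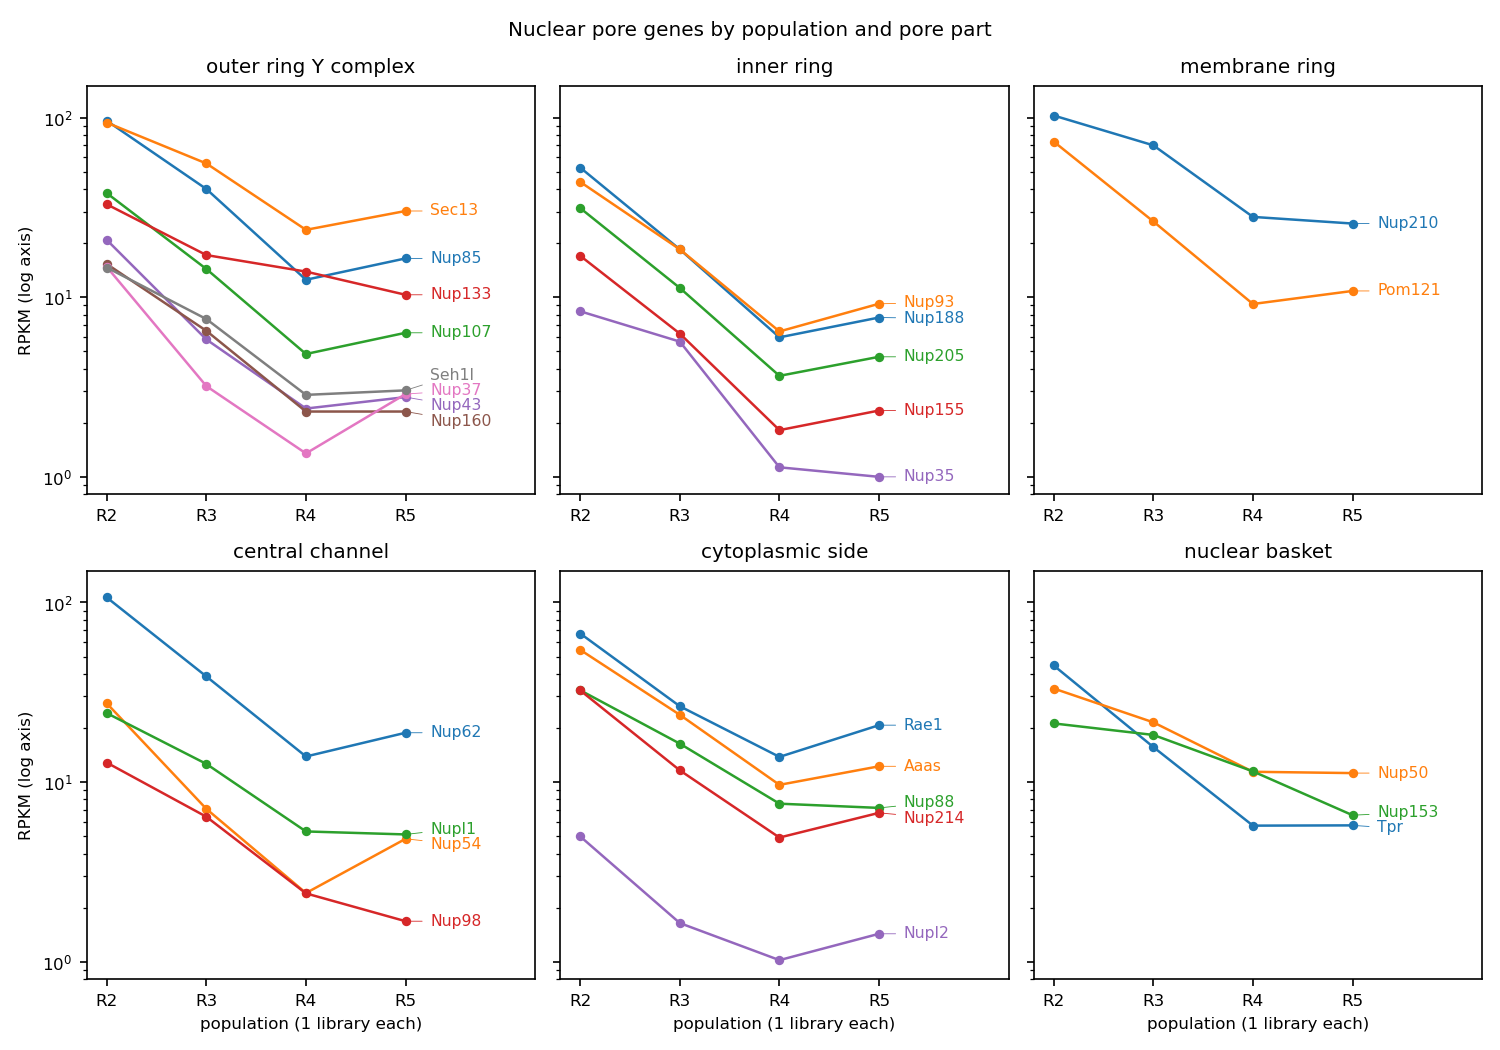
RPKM on a log axis in R2, R3, R4 and R5, 1 library each, for the 27 pore genes in 6 panels by pore part, each line being 1 gene. Every line is highest in R2; most reach their lowest point in R4, while Nup153, Nup133 and Nup98 go on down to R5.

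All 27 members were highest in R2 as deposited, 18 were lowest in R4, 8 were lowest in R5, and Nup160 had the same value in both. Their summed level was 1117 (R2), 507 (R3), 210 (R4) and 238 RPKM (R5). Set against all RNA, this was 0.280% (R2), 0.0936% (R3), 0.0298% (R4) and 0.0273% (R5) of the total. The median member stood at 32.4 (R2), 15.7 (R3), 5.72 (R4) and 6.54 RPKM (R5). These courses are common in these libraries: of all kept genes 86.2% were highest in R2, 73.2% lowest in R4 and 18.3% lowest in R5. With the samples scaled by the median gene ratio, 21 of 27 members were highest in R2, against 60.3% of kept genes, and 17 were lowest in R5, against 21.7%; with globins removed the counts were 21 (68.1% of genes) and 11 (19.8%).

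Among the outer ring genes, which form the Y complex, 2 stood far above the rest in R2 and R3. Sec13, shared with the COPII vesicle coat, was at 93.8 (R2), 55.6 (R3), 23.7 (R4) and 30.2 RPKM (R5). Nup85 was at 96.1, 40.0, 12.5 and 16.5 RPKM in the same order. The pair began level in R2 and drew apart, so that Sec13 stood at 0.976 of the Nup85 level in R2 (95% counting interval 0.945 to 1.01) and at 1.90 times it in R4 (1.76 to 2.04). Nup107, for which the complex is often named, was at 38.0 (R2), 14.4 (R3), 4.83 (R4) and 6.34 RPKM (R5).

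Nup133, which senses curved membrane and links neighbouring Y complexes, took another course. It was at 32.9 (R2), 17.2 (R3), 13.9 (R4) and 10.3 RPKM (R5). Its level was thus close to that of its binding partner Nup107 in R2, 0.867 times it (0.830 to 0.905), and 2.88 times it in R4 (2.61 to 3.17). Among the 27 members ranked by RPKM, Nup133 was 13th in R2, 3rd in R4 and 9th in R5.

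The other Y complex genes were low and near each other. Nup43, a propeller protein of the complex, was at 20.9 (R2), 5.82 (R3), 2.40 (R4) and 2.78 RPKM (R5). Nup160, a large scaffold protein, was at 15.3, 6.50, 2.31 and 2.31 RPKM, and Seh1l, which also serves a nutrient-sensing complex, at 14.6, 7.56, 2.86 and 3.03. Nup37 was at 14.8 (R2), 3.20 (R3), 1.35 (R4) and 2.89 RPKM (R5). Nup37 thus had the lowest ratio of all members in R3 against R2, and in R5 it was the only one of these 4 genes above 1.5 times its R4 level.

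Of the 5 inner ring genes, 4 ran nearly in parallel. Nup188 and Nup205 are large scaffold proteins that each pair with Nup93. Nup188 was at 52.7 (R2), 18.5 (R3), 5.98 (R4) and 7.71 RPKM (R5), and Nup205 ran below it throughout, at 31.3, 11.3, 3.65 and 4.66 RPKM. Nup93, the linker of the ring, was at 43.9 (R2), 18.5 (R3), 6.45 (R4) and 9.20 RPKM (R5). Nup155, which contacts the membrane, was at 17.0, 6.27, 1.82 and 2.34 RPKM. These 4 genes kept their order relative to each other except that Nup93 was level with Nup188 in R3 and above it in R4 and R5. Nup35, a small membrane-binding member of the ring, was at 8.35 (R2), 5.66 (R3), 1.13 (R4) and 1.0 RPKM (R5), so its lowest step ratio was that of R4 against R3, backed by an estimated 488 reads in R3 and 104 in R4.

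Both membrane ring genes were among the 5 highest in R2. Nup210, a membrane glycoprotein known in mouse from its rise in differentiating muscle and nerve cells, was at 103 (R2), 70.1 (R3), 28.0 (R4) and 25.7 RPKM (R5). Pom121, an early component of newly assembling pores, was at 73.6, 26.4, 9.17 and 10.8 RPKM. Nup210 was the most abundant member in R3 and R4. Its level was 1.40 times that of Pom121 in R2 (1.36 to 1.43), 2.65 times in R3 (2.56 to 2.75), 3.05 times in R4 (2.89 to 3.23) and 2.37 times in R5 (2.23 to 2.52).

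In the central channel, Nup62, the core FG protein, was at 107 (R2), 38.7 (R3), 13.9 (R4) and 18.8 RPKM (R5), the highest member in R2 and the 4th in each later population. Its partners Nup54 and Nupl1 (also called Nup58) build the same channel complex. Nup54 was at 27.4 (R2), 7.09 (R3), 2.41 (R4) and 4.83 RPKM (R5). Nupl1 was at 24.2, 12.6, 5.31 and 5.11 RPKM. The 2 partners were thus near each other in R2 and in R5, while in R4 Nup54 lay below Nupl1 by more than 2-fold. Nup98, an FG protein that carries a docking site for Rae1, was at 12.8 (R2), 6.41 (R3), 2.40 (R4) and 1.68 RPKM (R5).

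On the cytoplasmic side, Rae1, an mRNA export factor, was the most abundant. It was at 67.2 (R2), 26.4 (R3), 13.8 (R4) and 20.7 RPKM (R5), and against its docking partner Nup98 it stood at 5.24 times the Nup98 level in R2 (5.0 to 5.48) and 12.3 times in R5 (11.0 to 13.8). Aaas, which encodes the Allgrove syndrome protein ALADIN, was at 54.5, 23.7, 9.65 and 12.2 RPKM. Nup88 and Nup214 form a complex that holds export factors at the filaments. Nup88 was at 32.4 (R2), 16.4 (R3), 7.58 (R4) and 7.18 RPKM (R5), and Nup214 at 32.4, 11.6, 4.91 and 6.74. Nupl2, which binds the export factor Gle1, was the lowest member in R2, at 4.98 RPKM, with 1.64 in R3, 1.02 in R4 and 1.43 in R5.

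The 3 nuclear basket genes also parted. Tpr, the coiled-coil protein that forms the basket's struts, was at 44.6 (R2), 15.7 (R3), 5.72 (R4) and 5.74 RPKM (R5). Nup153, which anchors the basket, was at 21.2 (R2), 18.3 (R3), 11.5 (R4) and 6.54 RPKM (R5). Nup50, a mobile partner of Nup153 in protein import, was at 33.2, 21.5, 11.4 and 11.2 RPKM. Tpr was the highest of the 3 in R2 and the lowest in R3, R4 and R5. Nup153 stood at 0.476 times the Tpr level in R2 (0.458 to 0.495), 1.17 times in R3 (1.12 to 1.22), 2.01 times in R4 (1.88 to 2.14) and 1.14 times in R5 (1.05 to 1.24). The gene pairs given in these ratios were chosen after their values were seen.

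**Figure D2:**
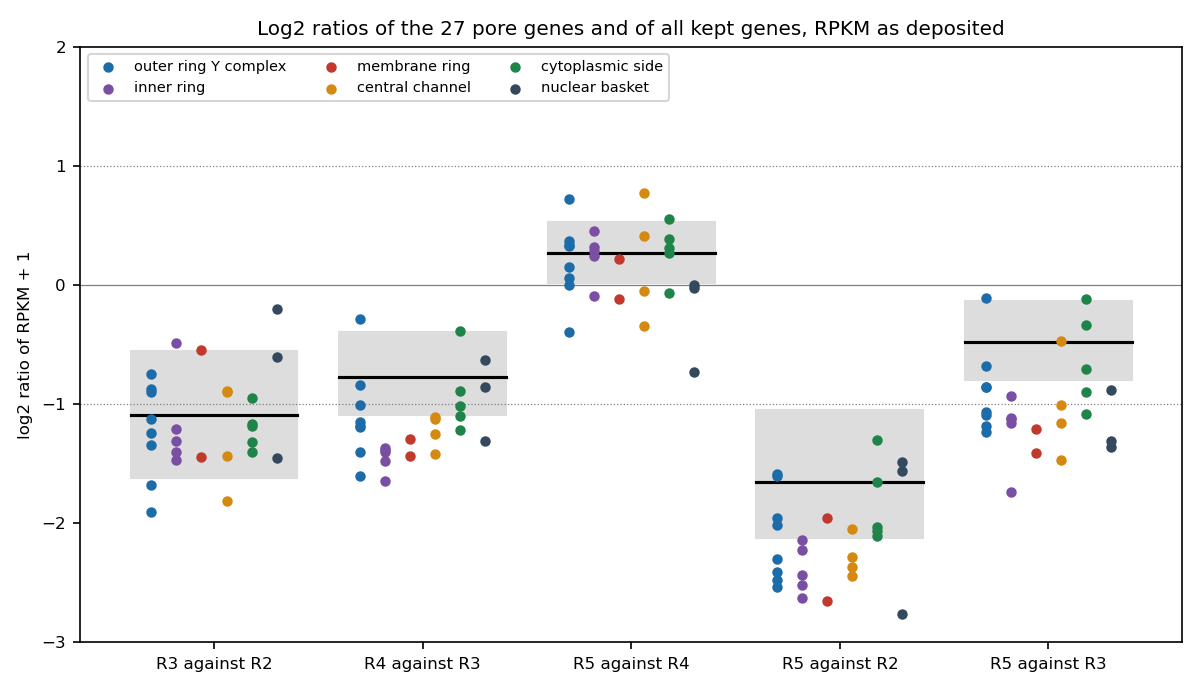
Log2 ratio of RPKM + 1 of the 27 pore genes (points, coloured by pore part) in 5 comparisons, RPKM as deposited, with the middle 50% of all 9942 kept genes as a grey box and their median as a black line. The members lie around the median gene in R3 against R2 and in R5 against R4, and mostly below it in the other comparisons.

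R3 against R2 asks how the pore genes stand as erythroblasts become basophilic. Of 27 members, 17 were at least 2-fold lower in R3 and 0 higher, where 55.1% of all kept genes were lower and 3.81% higher. The members' median log2 ratio of RPKM + 1 was -1.20, against -1.09 for the median gene, a distance of -0.11 that became 0.11 with a pseudocount of 0.1 RPKM, so the list was not placed apart from other genes at this step. The 5 lowest ratios were those of Nup37 at -1.91, Nup54 at -1.81, Nup43 at -1.68, Nup188 at -1.46 and Tpr at -1.45. The 5 highest were Nup153 at -0.20, Nup35 at -0.49, Nup210 at -0.54, Nup50 at -0.60 and Sec13 at -0.74. With the libraries scaled by the median gene ratio, these 5 were at 0.62, 0.26, 0.33, 0.24 and 0.13, so whether they were above or below their R2 level depended on the scaling. With median scaling 1 of 27 members was at least 2-fold lower (19.4% of genes) and 0 higher (9.02%); with globins removed 2 were lower (23.7%) and 0 higher (8.14%).

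R4 against R3 covers the step to polychromatophilic and orthochromatophilic cells, and here the pore genes stood lower than most. Of 27 members, 21 were at least 2-fold lower in R4 and 0 higher, where 32.1% of kept genes were lower and 0.493% higher. By RPKM + 1 a gene below 1 RPKM in R3 cannot be 2-fold lower in R4. Only 8111 of the 9942 kept genes reached 1 RPKM in R3, while every member did, which holds down the share of all genes. The members' median was -1.19 against -0.77 for all genes, and 24 of 27 lay below the median gene. The distance between the medians, -0.43, was -0.28 with a filter of 5 RPKM. All 5 inner ring genes, both membrane ring genes and all 4 channel genes were among the 21, with 6 of 8 outer ring, 3 of 5 cytoplasmic and 1 of 3 basket genes. The lowest ratios were Nup35 at -1.64, Nup85 at -1.60, Nup188 at -1.48, Pom121 at -1.43 and Nup62 at -1.42. The highest among members with at least 5 RPKM were Nup133 at -0.29, Nup153 at -0.63, Nup50 at -0.86, Rae1 at -0.89 and Nup43 at -1.0. With median scaling 0 of 27 were past 2-fold in either direction, with 0.411% of genes lower and 4.65% higher, and the members' median stayed 0.20 below that of all genes. With globins removed 1 of 27 was lower (2.95% of genes) and 0 higher (2.08%).

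R5 against R4 sets the reticulocyte-containing population against late erythroblasts. By RPKM + 1 no member was past 2-fold, where 0.604% of kept genes were lower and 3.96% higher. The median ratio was 0.24 against 0.27 for all genes. As deposited 18 of 27 members were above 0, with globins removed 16, and with median scaling 9. The direction of some members at this step thus depended on the scaling. Among members with at least 5 RPKM in 1 of the 2 libraries the highest were Rae1 at 0.55, Nup93 at 0.45, Nup62 at 0.41, Nup214 at 0.39 and Nup85 at 0.37. The lowest was Nup153 at -0.73, with 6.54 RPKM in R5 and 11.5 in R4, followed by Nup133 at -0.40, Nup210 at -0.12, Nup88 at -0.07 and Nupl1 at -0.05. With median scaling Nup153 alone was past 2-fold, at -1.10, where 2.78% of genes were lower and 1.95% higher; with globins removed no member was (1.66% lower, 3.17% higher). Below 5 RPKM, Nup54 was at 0.77 and Nup37 at 0.73, and Nup98 at -0.34.

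Members with longer transcripts tended to the lower ratios at this last step. Across the 27 members Spearman's rho between exonic length and the log2 ratio was -0.51, and across 8683 kept genes with a length it was -0.35. The genes share the same 2 libraries and are not replicates. The 13 members above the median length had a median ratio of 0.00 and 6 were below 0, while the 14 others had a median of 0.33 and 2 were below 0. In R3 against R2 and R4 against R3 rho over the members was 0.17 and -0.03. In R5 against R3 it was -0.50, and -0.21 over the kept genes with a length. In R5 against R2 these values were -0.16 and -0.05. What moves with length in R5, and its part in the values of Nup153, Nup133 and Nup98, was not tested.

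**Figure D3:**
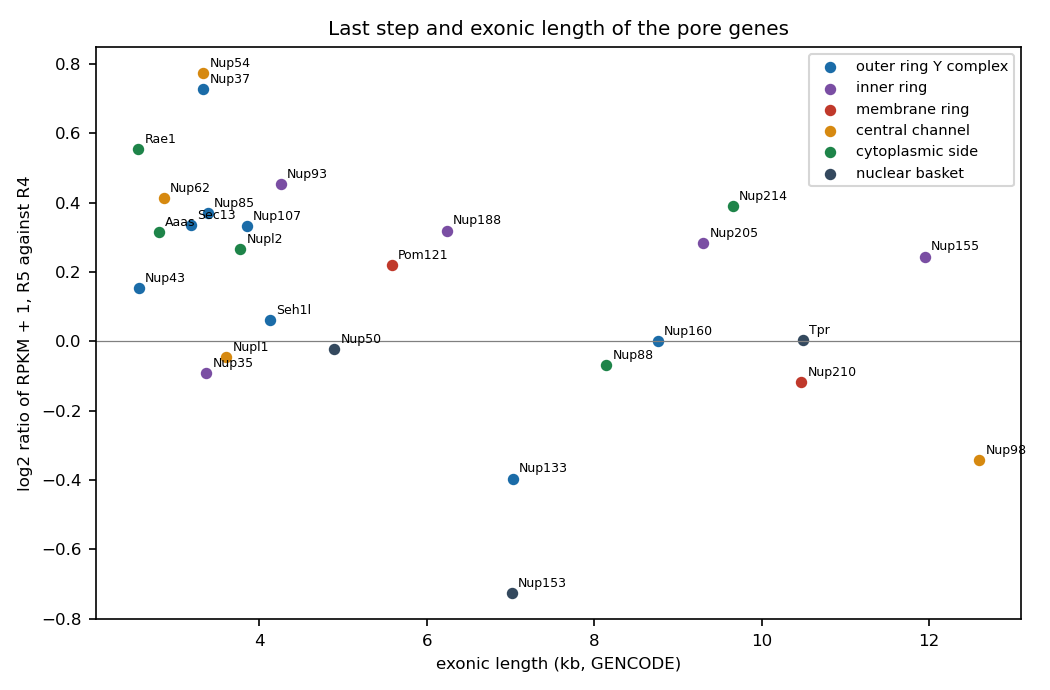
Log2 ratio of RPKM + 1, R5 against R4, plotted against exonic length in kb for the 27 pore genes, coloured by pore part. Short genes such as Nup54, Nup37 and Rae1 lie highest; Nup153, Nup133 and Nup98 lie lowest, and long genes such as Nup214 and Nup155 lie above 0.

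Over the whole course, R5 against R2, all 27 members were at least 2-fold lower, where 76.9% of kept genes were lower and 2.74% higher. Their median was -2.14 against -1.65 for all genes, and 21 of 27 lay below the median gene. Adding 1 RPKM understates the change of low genes, which are part of all kept genes. The distance between the medians, -0.48, was -0.19 with a pseudocount of 0.1 RPKM and -0.30 with a filter of 5 RPKM. The lowest were Tpr at -2.76, Pom121 at -2.65, Nup188 at -2.62, Nup43 at -2.53 and Nup205 at -2.51. The highest with at least 5 RPKM were Nup50 at -1.48, Nup153 at -1.56, Nup133 at -1.58, Sec13 at -1.60 and Rae1 at -1.65, and the low gene Nupl2 was at -1.30. With median scaling 8 of 27 were at least 2-fold lower (14.8% of genes), 0 higher (10.3%) and Nup50 turned to 0.04, while with globins removed 13 of 27 were lower (31.1% of genes), 0 higher (7.8%) and every member stayed below 0.

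R5 against R3 leaves aside R2, the library richest in granulocyte RNA. Markers of other cells were found in these 2 libraries as well. Hepatocyte markers summed to 466 RPKM in R3 and 326 in R5, and granulocyte markers to 439 and 479. Of 27 members, 16 were at least 2-fold lower in R5 and 0 higher, where 13.1% of kept genes were lower and 0.664% higher. Here too, kept genes below 1 RPKM in R3 cannot be 2-fold lower, which holds down the share of all genes. The median was -1.09 against -0.47 for all genes, and 23 of 27 lay below the median gene. With a filter of 5 RPKM the distance between the medians was -0.50. The lowest were Nup35 at -1.74, Nup98 at -1.47, Nup210 at -1.41, Nup153 at -1.36 and Tpr at -1.31. The highest with at least 5 RPKM were Rae1 at -0.34, Nup54 at -0.47, Nup133 at -0.68, Nup214 at -0.71 and Nup43 at -0.85. The members' median lay 0.61 below the median gene as deposited, 0.46 below it with median scaling and 0.50 below it once globins were removed. With median scaling 1 of 27 was at least 2-fold lower (1.06% of genes) and 0 higher (3.27%), and with globins removed 2 were lower (3.07%) and 0 higher (2.04%). The comparisons share libraries, so their values are given side by side and not as independent evidence.

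**Figure D4:**
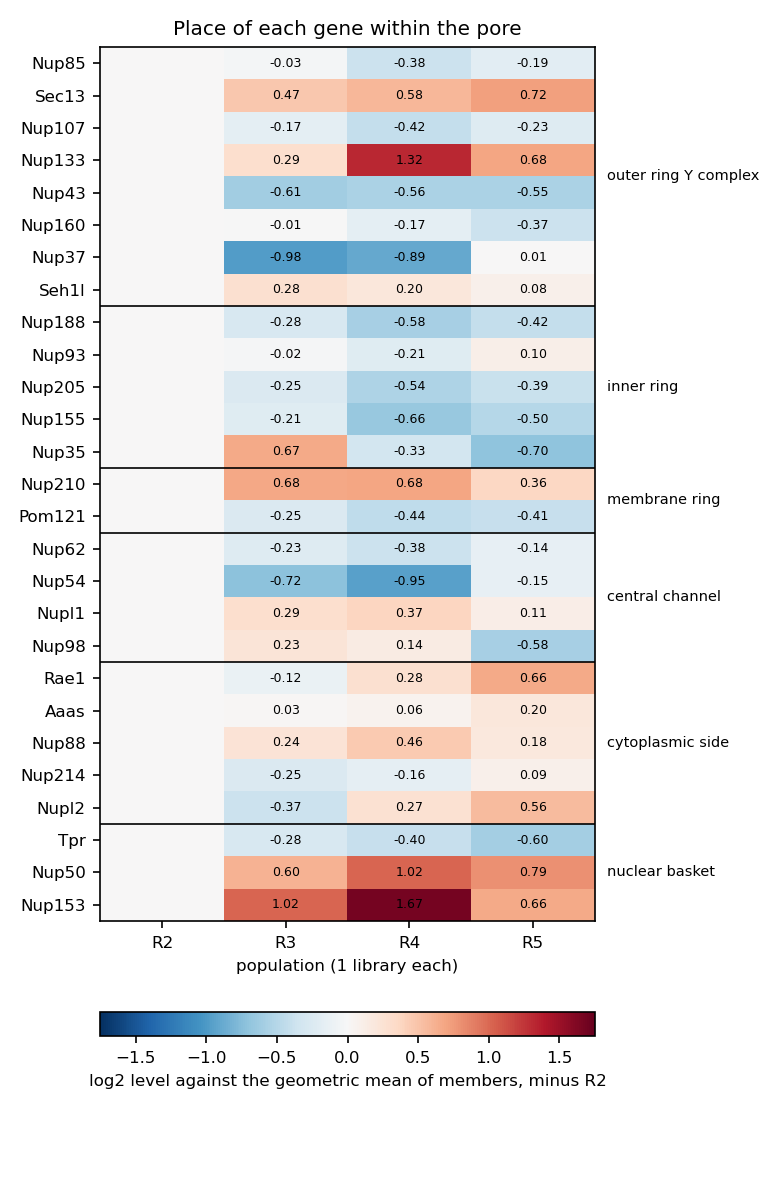
Log2 level of each of the 27 pore genes against the geometric mean of all members in the same library, minus the same value in R2, with blue for a lower and red for a higher place within the pore. In R4, Nup153, Nup133 and Nup50 stand out above and Nup54 and Nup37 below, and most of these are closer to 0 in R5.

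Within the pore, where the scaling of libraries drops out, a small set of genes gained on the rest until R4. Against the geometric mean of the 27 members in the same library, Nup153 stood 1.67 higher on the log2 scale in R4 than in R2, Nup133 1.32, Nup50 1.02, Nup210 0.68 and Sec13 0.58. Nup54 stood lower in R4 than in R2 by 0.95, Nup37 by 0.89, Nup155 by 0.66 and Nup188 by 0.58. By R5 Nup50, at 0.79, stood highest by this measure, Nup153 and Nup133 were at 0.66 and 0.68, Nup54 stood at -0.15 and Nup37 at 0.01, while Sec13 and Rae1 were at 0.72 and 0.66. The order of levels was otherwise much alike between populations, with Spearman's rho over the 27 members of 0.93 between R5 and R2, 0.85 between R4 and R2 and 0.95 between R5 and R4, as a description. Many neighbours in that order did not differ beyond counting error: 10 (R2), 13 (R3), 15 (R4) and 15 (R5) of 26 neighbouring pairs.

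**Figure D5:**
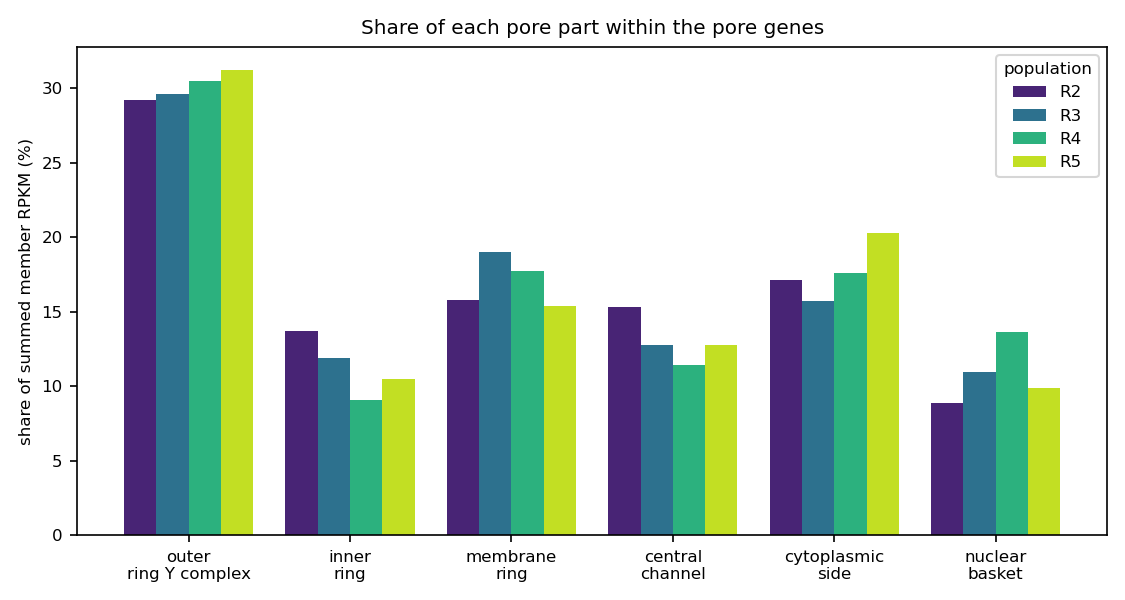
Share of the summed RPKM of all 27 members, in percent, held by each pore part in R2, R3, R4 and R5, 1 library each. The basket's bars climb to R4 and drop in R5, the inner ring's bars do the opposite, and the outer ring keeps the largest share throughout.

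Summed by part, the nuclear basket held 8.86% (R2), 10.9% (R3), 13.6% (R4) and 9.87% (R5) of the members' RPKM. The inner ring held 13.7%, 11.9%, 9.08% and 10.5%. The outer ring was the steadiest, at 29.2%, 29.6%, 30.5% and 31.2%. Of its genes, Nup133 and Sec13 gained most from R2 to R4, from 2.95% to 6.63% and from 8.39% to 11.3%. Nup85 lost most, from 8.60% to 5.97%. With Sec13 left out, the outer ring's share in R4 was below that in R2. The same was not done for Nup133. The membrane ring held 15.8%, 19.0%, 17.7% and 15.4%, the central channel 15.3%, 12.8%, 11.4% and 12.8%, and the cytoplasmic side 17.1%, 15.7%, 17.6% and 20.3%. Grouped instead by protein type, the 9 members classed here as FG-repeat proteins held 30.1% (R2), 28.5% (R3), 29.6% (R4) and 28.2% (R5), with a median log2 ratio for R5 against R2 of -2.11, against -2.18 for the other 18.

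Partners of the pore outside the rule were described from a list of 20 genes, all measured. In R5 against R2, 20 of 20 were at least 2-fold lower, where 76.9% of kept genes were; their median log2 ratio was -1.93 as deposited, -0.58 with median scaling and -0.89 once globins were removed. In R4 against R3, 11 of 20 were lower (32.1% of genes), with medians of -1.02, -0.09 and -0.43 under the same 3 scalings. In R3 against R2, 9 of 20 were lower (55.1% of genes), with medians of -0.95, -0.13 and -0.22. In R5 against R4, 0 of 20 were past 2-fold in either direction (0.604% of genes lower and 3.96% higher). In R5 against R3, 7 of 20 were lower (13.1% of genes), with medians of -0.78, -0.21 and -0.42. The median gene there stood at -0.47, 0.03 and -0.16 under the same 3 scalings. Tmem48, the membrane ring protein now called Ndc1, was at 18.1 (R2), 5.11 (R3), 1.78 (R4) and 1.85 RPKM (R5), with the same order of populations as Pom121. Ranbp2, the large protein of the cytoplasmic filaments, was at 15.9, 9.65, 4.74 and 2.57 RPKM, and Ahctf1, which brings the Y complex to chromatin after mitosis, at 26.7, 11.1, 5.08 and 4.59. Of these 3, Ranbp2 had the lowest ratio in R5 against R4, -0.69, close to that of Nup153.

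The Ran cycle gives transport its direction, and Ran was above every pore gene in all 4 libraries. It was at 227 (R2), 119 (R3), 57.8 (R4) and 74.0 RPKM (R5). Rangap1, which triggers GTP hydrolysis by Ran at the cytoplasmic face, was at 135, 104, 59.6 and 66.5 RPKM and had the highest ratio of the list in R5 against R2, -1.01. Ranbp1, a Ran-binding cofactor, was at 297, 95.8, 31.4 and 58.8 RPKM in the same order. Rcc1, the nuclear exchange factor of Ran, was at 89.6, 30.7, 10.1 and 17.3 RPKM. Both had ratios for R5 against R4 above that of any pore gene with at least 5 RPKM, at 0.88 for Ranbp1 and 0.72 for Rcc1.

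The mRNA export genes and the remaining partners of the list, except Senp2, were highest in R2. Nxf1, the main mRNA export receptor, was at 49.8 (R2), 27.8 (R3), 12.3 (R4) and 13.1 RPKM (R5), and its cofactor Nxt1 at 34.6, 20.1, 5.35 and 10.1. Gle1 was at 27.6, 13.5, 6.35 and 7.22 RPKM, and it works with the Ddx19 helicases to release mRNA at the cytoplasmic face. Ddx19a was at 51.2, 24.2, 6.88 and 10.2 RPKM, and Ddx19b at 4.73, 0.77, 0.26 and 0.54. These 2 helicase genes are near copies, so the split of reads between them is uncertain. Senp2, a SUMO protease that docks at the basket, was at 14.0 (R2), 16.6 (R3), 7.47 (R4) and 5.90 RPKM (R5), the only gene of the list that was higher in R3 than in R2 as deposited. Senp1 was at 15.1, 9.29, 2.81 and 2.99 RPKM in the same order. Mcm3ap, Pcid2 and Eny2 encode parts of the TREX-2 export complex, which docks at the basket. Mcm3ap was at 18.5, 7.40, 4.25 and 3.98 RPKM, Pcid2 at 24.9, 6.95, 2.91 and 4.59, and Eny2 at 4.37, 2.09, 0.90 and 0.91. These 3 were highest in R2. Nutf2, the import factor of Ran, was at 7.46, 2.66, 1.10 and 1.14 RPKM. Mad1l1, a checkpoint protein held at the basket, was at 35.5, 18.1, 7.91 and 12.1 RPKM, and Tmem33, a membrane protein, at 5.77, 3.24, 1.81 and 1.65.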

How the data were processed

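Values are RPKM (reads scaled to gene length and library size), 1 library per population, as the authors deposited them, with 2 decimals. Per the labels' protocols RNA was enriched for polyadenylated transcripts, and mm9 is the build named in the submitters' processing notes. The aligner, counter, annotation and gene lengths behind the values were not given in the sources used here. Because only symbols and values are listed, the coordinates printed are GRCm38.p6 positions of RefSeq promoter windows. Genes with at least 1 RPKM in 1 of 4 libraries were kept, 9942 of 19564. Log2 ratios of RPKM + 1 were taken, which understates the change of low genes, and a ratio of 2-fold or more was counted. Depth was inferred from genes whose values step by a fixed unit in each library, and reads per member from GENCODE M21 union exonic length, which overstates them where fewer bases were countable. Counting intervals are exact (Clopper-Pearson) on these estimated reads and belong to ratios of RPKM with nothing added.

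Alternatives were a filter of 5 RPKM or none, a pseudocount of 0.1 or 5 RPKM, scaling by the median ratio to the geometric mean over 2745 genes with at least 5 RPKM in every library, globin removal with rescaling to a common sum, leaving out genes under 30 estimated reads, and 2 other ways of comparing pore parts. The filter was applied after scaling. All members are named. In each comparison the 5 highest and 5 lowest ratios among members with at least 5 RPKM in 1 of the libraries compared are given. Members outside this limit, and the gene pairs, were named after their values were seen. The members and lists were chosen with earlier results of these data known. Part of the erythroid marker list is not reported here. A planned count of FG repeats in member proteins was not run. Steps were tested on simulated data. Python 3.11.15, pandas 2.3.3, NumPy 2.4.6 and SciPy 1.17.1 were used.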

Additional observations from a re-analysis of the deposited data

How the results depend on the processing

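With median scaling the members at least 2-fold lower were 1 of 27 (R3 against R2), 0 (R4 against R3), 1 (R5 against R4), 8 (R5 against R2) and 1 (R5 against R3); with globins removed they were 2, 1, 0, 13 and 2. With a pseudocount of 5 RPKM, 7 were lower in R4 than in R3 and 3 in R5 than in R3, and with 0.1 RPKM 1 was higher in R5 against R4. The distance of the members' median from the median gene in R3 against R2 was -0.11 as deposited, 0.11 and -0.40 with pseudocounts of 0.1 and 5, -1.03 with no filter, -0.010 with a filter of 5 RPKM, -0.015 with median scaling and -0.013 with globins removed. In R4 against R3 it was -0.26 with a pseudocount of 0.1, -1.06 with no filter, -0.28 with a filter of 5 RPKM, -0.20 with median scaling and -0.26 with globins removed. In R5 against R4 it was 0.18 with no filter. In R5 against R2 it was -0.19 and -0.66 with pseudocounts of 0.1 and 5, -1.81 with no filter, -0.30 with a filter of 5 RPKM, -0.19 with median scaling and -0.24 with globins removed. In R5 against R3 it was -1.06 with no filter, -0.46 with median scaling and -0.50 with globins removed. In R4 against R3, R5 against R2 and R5 against R3 the distance was below 0 under every alternative run. Without a filter the median gene is one listed near 0, which is how that setting widens the distance. Of the members' own ratios past 2-fold, Nup50 in R5 against R2 turned sign, to 0.036 with median scaling.

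On the log2 scale, the share of a part in R4 over that in R2 became -0.039 for the outer ring by mean log2 level and -0.0731 with Sec13 left out, -0.46 for the inner ring, 0.12 for the membrane ring, -0.20 for the central channel, 0.18 for the cytoplasmic side and 0.76 for the basket by mean log2 level, and 0.22 for the membrane ring and 0.67 for the basket with Sec13 left out. Leaving out genes under 30 reads removed 37 kept genes and 0 members. Causes were not tested. No paired analysis was possible because each population has 1 library.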
